A study of Mus musculus with 16 samples.

Results

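The 10 genes described here belong to the G1 control of the cell cycle. They are the cyclin-dependent kinase (CDK) inhibitors *Cdkn1a*, *Cdkn1b*, *Cdkn1c*, *Cdkn2c* and *Cdkn2d*, the D cyclins *Ccnd1*, *Ccnd2* and *Ccnd3*, and the partner kinases *Cdk4* and *Cdk6*. They were chosen by symbol from the 54347 genes of the deposited table, and all 10 were found in it. D cyclins bind and activate *Cdk4* and *Cdk6*, which phosphorylate the retinoblastoma family of pocket proteins and so release E2F transcription factors for entry into S phase. Inhibitors of the Cip/Kip family (*Cdkn1a*, *Cdkn1b*, *Cdkn1c*) bind complexes of cyclin and CDK, whereas those of the Ink4 family (*Cdkn2c*, *Cdkn2d*) bind *Cdk4* and *Cdk6* themselves. In bone marrow, hematopoietic stem cells are mostly quiescent, several of these inhibitors are known to hold them there, and committed myeloid progenitors divide actively.

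RNA-seq was performed on sorted bone marrow cells of URE mice and WT littermates on a C57BL/6 background, aged 8 to 12 weeks, with 4 mice for each genotype and cell type and 16 libraries in all. URE mice lack an upstream enhancer of *Spi1*, the gene of the transcription factor PU.1, in the whole animal, and were preleukemic when taken. LSK cells were sorted as Lin- Sca-1+ c-*Kit*+ and hold stem cells and multipotent progenitors, and GMP cells were sorted as Lin- Sca-1- c-*Kit*+ Cd16/32+ and hold granulocyte-monocyte progenitors. Both cell types passed the same c-*Kit* enrichment, and no further allele or agent is named for either genotype. Replicates carry the numbers 1 to 4 within a group, and the labels do not say whether LSK and GMP libraries of one number came from the same mouse. Total counts lay between 20028302 and 29128858 per library. Levels are given as CPM, the count of a gene scaled by its library's size, on a TMM scale shared by the 16 libraries, and as CPM per kb of annotated exonic length where genes are compared with each other.

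*Spi1* checked the labels. It stood at 124 ± 40.0 CPM in WT LSK, 3.02 ± 1.42 CPM in URE LSK, 140 ± 40.6 CPM in WT GMP and 21.3 ± 5.97 CPM in URE GMP (SD, n = 4). URE libraries lay below WT libraries throughout, with log2 fold changes of -5.39 in LSK and -2.73 in GMP (Benjamini-Hochberg adjusted p = 0.000266 and 0.00095 by edgeR's quasi-likelihood test). The summed level of 6 GMP markers (*Mpo*, *Elane*, *Prtn3*, *Ctsg*, *Fcgr3*, *Fcgr2b*) was 55046 to 160260 CPM in GMP libraries and 693 to 1614 CPM in LSK libraries, and that of 6 LSK and stem cell markers (*Ly6a*, *Kit*, *Hlf*, *Mecom*, *Procr*, *Cd34*) was 2148 to 3964 CPM in LSK and 860.1 to 2361 CPM in GMP. The latter sum overlapped between URE LSK and WT GMP, but not between the cell types of either genotype. *Kit* and *Cd34* made up most of it, with means of 705 and 1050 CPM in WT GMP. Within GMP, the genotypes also differed in makeup. The sum of 5 monocyte markers, none of them at 0, was 804 to 1029 CPM in WT GMP and 47.3 to 250.7 CPM in URE GMP, that of the GMP markers was 55046 to 70519 CPM in WT and 73769 to 160260 CPM in URE, and that of 7 markers of maturing neutrophils was 49.7 to 154 CPM in WT and 218 to 995 CPM in URE. Not every marker followed its sum. *Mmp8* was lower in URE GMP (log2 fold change of -3.04, adjusted p = 0.0130, edgeR), while the other neutrophil markers had positive fold changes. Of the GMP markers, *Fcgr2b* was at -0.80 and *Prtn3* at 0.12 (adjusted p = 0.118 and 0.900), and *Mpo* made up most of the sum. Within LSK, the sum of 5 lymphoid markers was 287 to 632 CPM in WT and 65.0 to 216 CPM in URE, where *Cd3e* was at 0, and that of the monocyte markers was 110 to 144 CPM in WT and 9.83 to 18.7 CPM in URE. That of the markers of maturing neutrophils was 35.1 to 177 CPM in WT LSK and 176.8 to 359 CPM in URE LSK, which overlapped. Sums of 4 megakaryocyte markers (52.2 to 75.4 CPM in WT LSK, 54.7 to 683 CPM in URE LSK) and 6 erythroid markers (47.3 to 131 and 19.6 to 80.6 CPM) overlapped too. Of the megakaryocyte markers, *Itga2b* was higher in URE LSK (log2 fold change of 1.88, adjusted p = 0.0260, edgeR) and *Gp9* was at -0.38 (adjusted p = 0.920). *Ppbp* reached 355 CPM in its highest URE LSK library, at a group mean of 88.9 CPM. The sum of 4 markers of mast cells and basophils was 23.2 to 44.0 CPM in WT LSK and 85.0 to 155 CPM in URE LSK. These markers went both ways. *Cpa3* and *Mcpt8* were higher in URE LSK (log2 fold changes of 1.89 and 2.11, adjusted p = 0.0212 and 0.0262, edgeR). *Ms4a2* and *Prss34* had negative ones (-2.74 and -0.94, adjusted p = 0.113 and 0.885). The sum of the lymphoid markers was 20.3 to 47.2 CPM in WT GMP and 6.69 to 13.8 CPM in URE GMP. The part of these differences in the results below was not tested. In bulk samples such as these, fewer cells of a type and less RNA per cell cannot be told apart. Y-linked genes stood well above stray reads in 3 of 4 WT libraries and 1 of 4 URE libraries of each cell type. The other libraries held stray reads at most, with a lowest *Kdm5d* count of 1 in WT LSK and in URE GMP. Sex was thus mixed unevenly over the genotypes. In both cell types, the WT library without Y-linked expression was replicate 4, and the URE library with it was replicate 1. Within replicates 2 and 3 alone, genotype and sex thus cannot be told apart, whereas replicates 1 and 4 were matched in Y-linked expression.

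For a call, a gene needed both an adjusted p below 0.05 over all genes tested and a change of more than 1.5-fold. Between URE and WT LSK, none of the 10 members was called, at a background of 6.14% of 15154 genes tested. None had an unadjusted p under 0.05 in edgeR, and DESeq2 called 0 of them as well, while a fit blocked by replicate number called *Cdkn1a*. Between URE and WT GMP, 1 of 9 members tested was called, *Ccnd1*, against 8.30% of all genes. Between GMP and LSK, 2 of 10 members were called in WT (*Cdk6* and *Cdkn1c*), against 27.3% of genes, and 4 of 9 in URE (*Cdkn1a*, *Ccnd1*, *Ccnd2* and *Cdk6*), against 21.8%. The genotype effect in GMP differed from that in LSK for 1 of 10 members, *Ccnd1*, against 1.22% of 15935 genes in an interaction test over all 16 libraries, for which adjusted p alone made the call. *Cdkn1c* was too low for a test in the comparison of URE GMP with WT GMP and in that of URE GMP with URE LSK. With the replicate number as a block, 1 of 10 members was called between the genotypes in LSK (*Cdkn1a*), against 9.46% of genes, and 2 of 9 in GMP (*Ccnd1* and *Ccnd3*), against 16.3%. From LSK to GMP the block gave 4 of 10 in WT (*Cdkn1a*, *Cdkn1c*, *Ccnd1* and *Cdk6*), against 40.9%, and the 4 genes named above in URE, against 31.9%, and it gave 2 of 10 for the interaction (*Cdkn1a* and *Ccnd1*), against 6.57%. The 4 comparisons share libraries pairwise, so their calls are given side by side only.

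**Figure D1:**
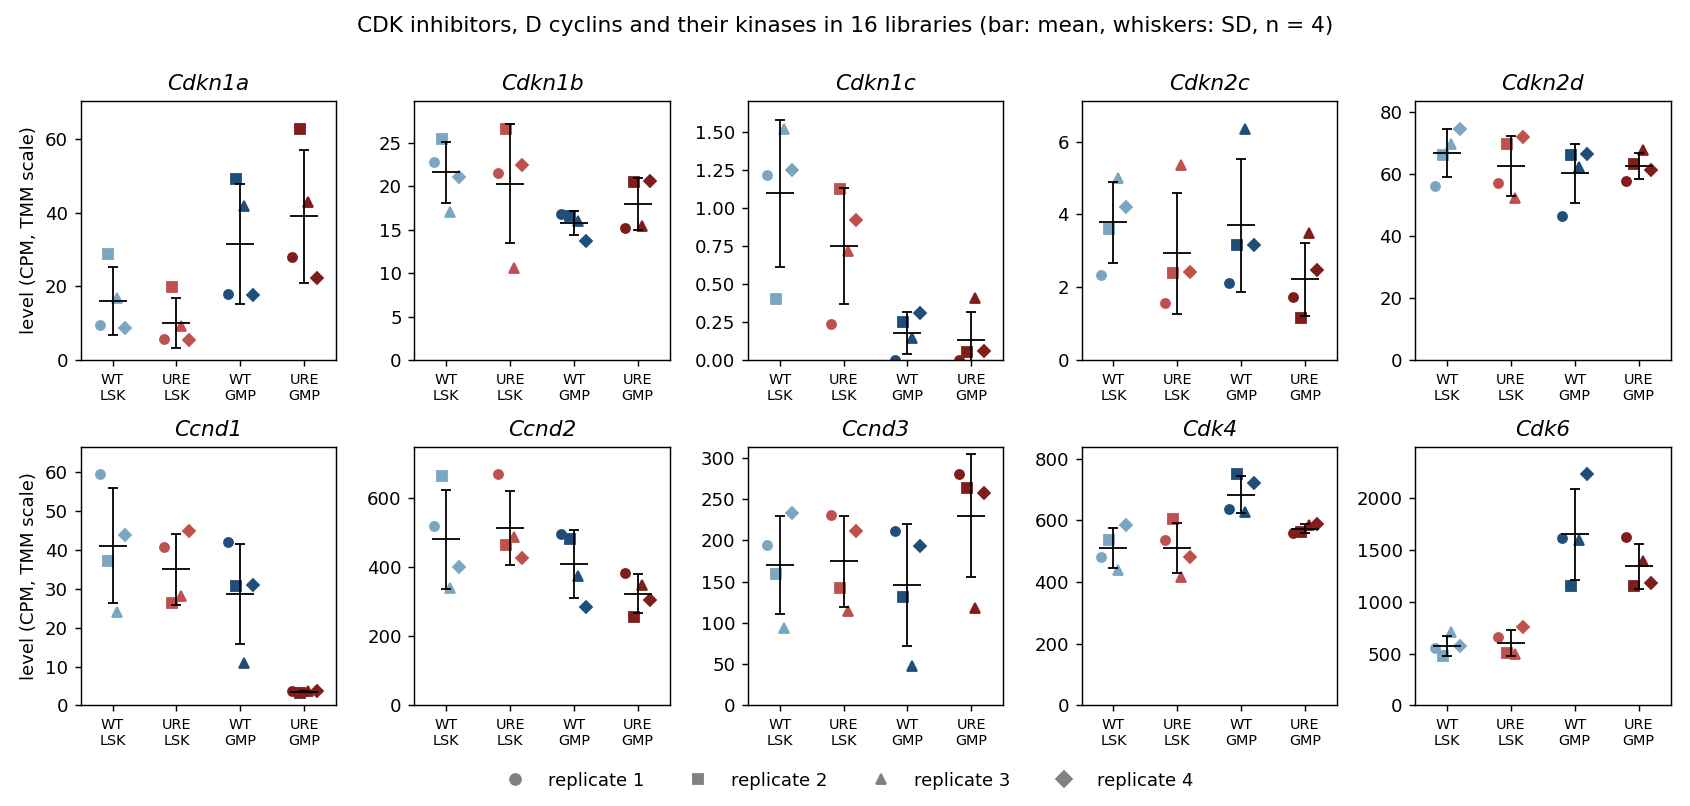
Level of each of the 10 genes (CPM on a linear axis from 0) in the 16 libraries, by group. Each point is 1 library, with the marker giving its replicate number, the bar is the group mean and the whiskers are the SD (n = 4). The 4 URE GMP libraries of *Ccnd1* sit between 3.24 and 3.69 CPM, below all others, and the GMP libraries of *Cdk6* lie above the LSK libraries in both genotypes.

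**Figure D2:**
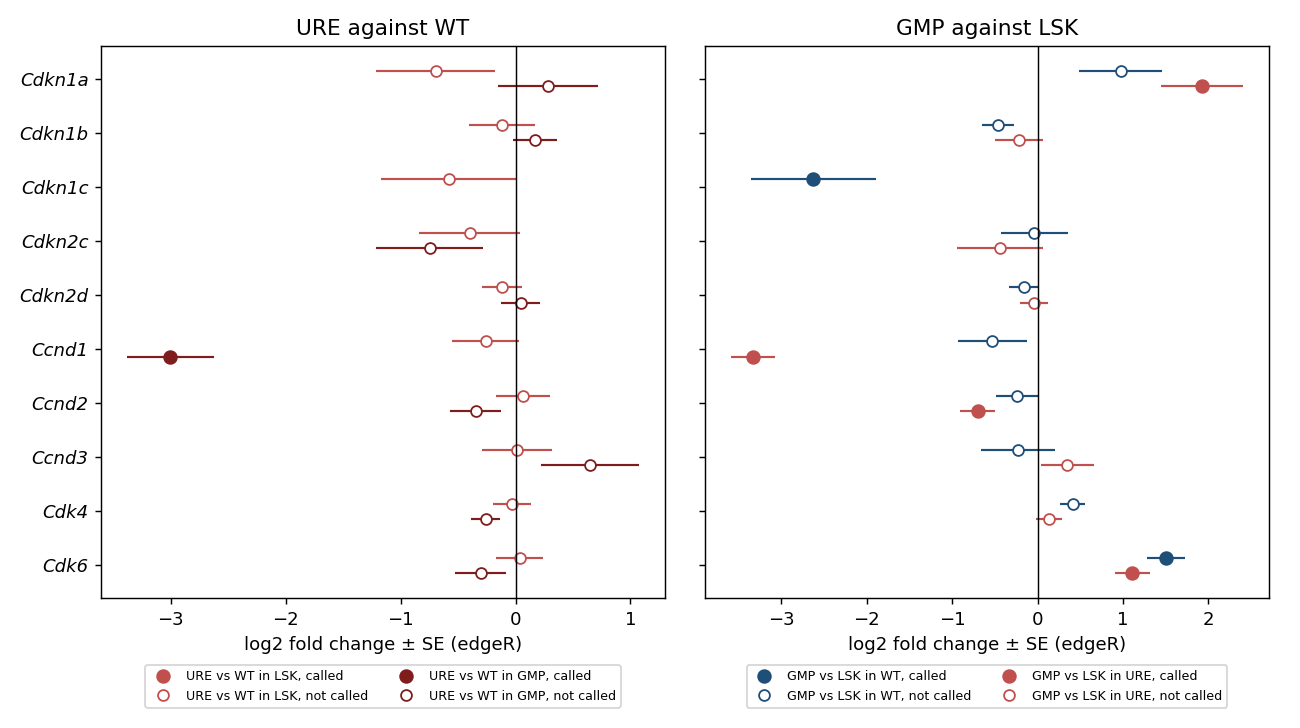
Log2 fold change with its SE for the 10 genes, URE against WT in LSK and GMP on the left and GMP against LSK in WT and URE on the right (edgeR). Filled points were called and open points were not, and *Cdkn1c* has no point where it was not tested. *Ccnd1* stands at -3.00 for URE against WT in GMP and at -3.34 for GMP against LSK in URE.

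Among the D cyclins, *Ccnd1* (chr7:144929931-144939925, minus strand, GRCm38) was called between the genotypes in GMP, and *Ccnd3* passed both thresholds there in a fit blocked by replicate number. *Ccnd1* encodes cyclin D1, which couples mitogen signals to *Cdk4* and *Cdk6*. In replicates 1 to 4 its level was 41.9, 30.7, 10.9 and 30.8 CPM in WT GMP and 3.67, 3.24, 3.69 and 3.66 CPM in URE GMP. Every URE library lay below every WT library, and 2 of the 9 members tested had groups that did not overlap in this comparison (*Ccnd1* and *Cdk4*), against 14.8% of all genes tested. The counts behind the URE GMP values were 62 to 76 per library, with 224 to 967 in WT GMP. The log2 fold change was -3.00 ± 0.38 (SE), or 8.01-fold lower in URE (edgeR's quasi-likelihood test, adjusted p = 0.00178, n = 4), and *Ccnd1* was lower in URE in 4 of 4 pairs of same-numbered libraries. The WT GMP library of replicate 3 was the lowest of its group, and within replicates 2 and 3 alone the log2 fold change was -2.60 with an adjusted p of 0.120, while replicates 1 and 4 alone gave -3.32 with an adjusted p of 0.000951 (edgeR). In replicates 2 and 3 only the WT libraries had Y-linked expression, so genotype and sex cannot be told apart there. With the summed log2 CPM of the Y-linked genes as a covariate, the log2 fold change over all 4 replicates was -3.03 (adjusted p = 0.0091, edgeR).

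In LSK the same gene showed no such gap. *Ccnd1* stood at 59.4, 37.1, 24.0 and 43.7 CPM in WT LSK and at 40.6, 26.3, 28.1 and 44.7 CPM in URE LSK, in replicates 1 to 4. The groups overlapped, and the log2 fold change was -0.26 ± 0.29 (SE, adjusted p = 0.842 by edgeR's quasi-likelihood test). The difference between the genotype effects in GMP and LSK was -2.77 ± 0.49 on the log2 scale (interaction term in edgeR, adjusted p = 0.0122), and within replicates 2 and 3 alone it was -2.40 with an adjusted p of 0.699. From LSK to GMP, *Ccnd1* changed by -3.34 ± 0.26 in URE mice (adjusted p = 7.73e-05, edgeR), 10.1-fold lower in GMP. In WT mice the change was -0.53 ± 0.40 (adjusted p = 0.370), and -0.60 with an adjusted p of 0.00814 where the replicate number was a block. The order of the group means was WT LSK (41.0 ± 14.7 CPM), URE LSK (35.0 ± 9.12 CPM), WT GMP (28.6 ± 12.9 CPM) and URE GMP (3.56 ± 0.217 CPM), and of these neighbours only WT GMP and URE GMP had ranges apart. The libraries are unstranded, and *LTO1* on the opposite strand shares 1100 bp of exon with *Ccnd1*, 23.4% of its exonic length. *LTO1* itself stood at 22.9 ± 3.19 CPM in WT GMP and 21.8 ± 1.07 CPM in URE GMP (SD, n = 4).

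*Ccnd2* encodes cyclin D2 and was the D cyclin with the highest level per kb in each group mean. In URE mice it fell from LSK to GMP. Its level in replicates 1 to 4 was 669, 465, 487 and 428 CPM in URE LSK and 384, 255, 349.7 and 306 CPM in URE GMP, with no overlap. The log2 fold change was -0.70 ± 0.20 (SE, adjusted p = 0.0339, edgeR's quasi-likelihood test), 4 of the 9 members tested had no overlap between these groups (*Cdkn1a*, *Ccnd1*, *Ccnd2*, *Cdk6*), against 26.6% of all genes tested, and *Ccnd2* was lower in GMP in 4 of 4 same-numbered pairs. This call was lost without URE GMP replicate 2, 3 or 4 or URE LSK replicate 1 or 3, with adjusted p-values of up to 0.104 over the libraries left out in turn. It was also lost without the filter on low counts (adjusted p = 0.0526, edgeR) and with replicates 1 and 4 or 2 and 3 alone (adjusted p = 0.0828 and 0.306). In WT mice *Ccnd2* stood at 519.6, 663, 339 and 400.5 CPM in LSK and 496, 483, 376 and 285 CPM in GMP. These groups overlapped, and the log2 fold change was -0.24 ± 0.25 (adjusted p = 0.527, edgeR). Between the genotypes the log2 fold changes of *Ccnd2* were 0.06 ± 0.23 in LSK and -0.35 ± 0.22 in GMP, and neither was called.

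*Ccnd3* encodes cyclin D3, which is known for its role in expanding immature lymphocytes and neutrophil precursors. Its level in replicates 1 to 4 was 211, 131, 47.7 and 194 CPM in WT GMP and 280.0, 264, 119 and 258 CPM in URE GMP. Replicate 3 was the lowest library in both groups, which overlapped only through it, and URE was higher than WT in 4 of 4 same-numbered pairs, by 1.33 to 2.49 times. The log2 fold change was 0.65 ± 0.43 (SE, adjusted p = 0.466, edgeR's quasi-likelihood test), and in a fit blocked by replicate number 0.77 ± 0.17 (adjusted p = 0.0201), which passed both thresholds. The pairs of replicates 2 and 3 also differed in Y-linked expression, which the blocked fit did not include. In LSK the levels were 194, 159, 93.8 and 233 CPM in WT and 230.4, 142, 114 and 212 CPM in URE. Replicate 3 was again the lowest in both groups, and the log2 fold change was 0.01 ± 0.30 (adjusted p = 0.995, edgeR). From LSK to GMP, the log2 fold changes of *Ccnd3* were -0.23 ± 0.43 in WT and 0.35 ± 0.31 in URE, neither of them called. The interaction was 0.62 ± 0.57 (adjusted p = 0.821), and 0.69 with an adjusted p of 0.121 under the block.

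Summed per kb, the 3 D cyclins stood at 79.2 ± 19.7 in WT LSK, 81.8 ± 16.6 in URE LSK, 66.3 ± 16.5 in WT GMP and 61.4 ± 9.32 CPM per kb in URE GMP (SD, n = 4). The totals of the 4 groups overlapped, and the makeup differed. *Ccnd1* made up 10.96% ± 2.53 of the sum in WT LSK, 9.11% ± 1.95 in URE LSK, 8.83% ± 2.78 in WT GMP and 1.25% ± 0.196 in URE GMP, where its highest share (1.52%) lay below the lowest of any other group (4.87%). *Ccnd3* made up 42.1% ± 11.2 in URE GMP and 24.1% to 24.5% in the means of the other groups, with ranges that overlapped (26.3% to 52.0% in URE GMP, 11.4% to 37.5% in WT GMP). *Ccnd2* held the rest, 56.6% ± 10.99 in URE GMP and 64.6% to 66.8% in the other group means. The shares of a library sum to its whole, so they do not move independently of each other.

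**Figure D3:**
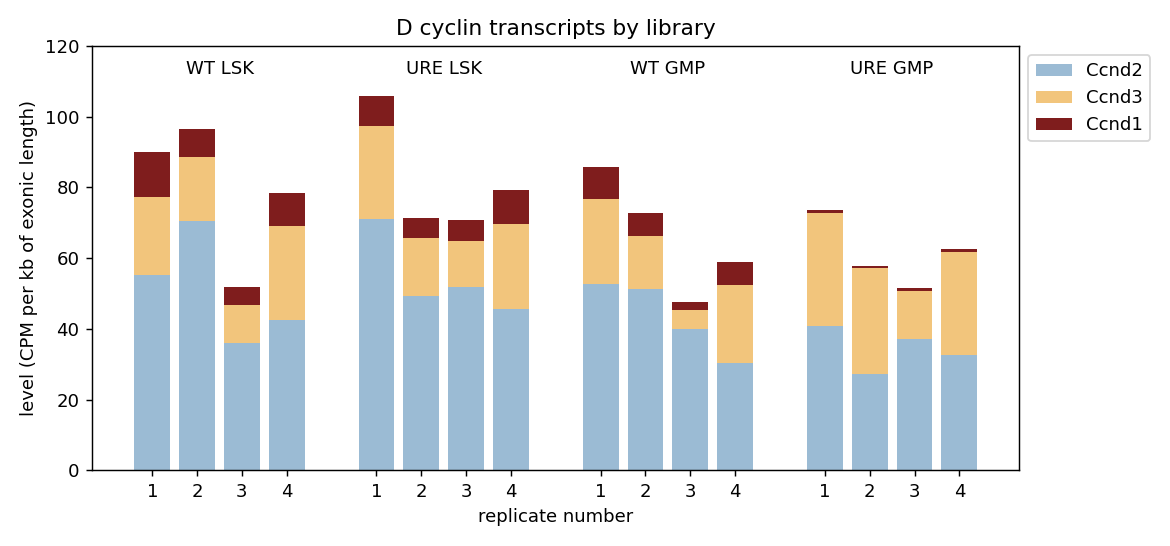
Level of the 3 D cyclins (CPM per kb of exonic length, stacked from 0) in each library, with the replicate number below and the group above. *Ccnd1* is the thin top band, which makes up 1.06% to 1.52% of the stack in URE GMP and 4.87% to 14.01% elsewhere.

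Of the partner kinases, *Cdk6* rose from LSK to GMP in both genotypes, and *Cdk4* was called in none of the comparisons. *Cdk6* (chr5:3341485-3531008, plus strand) is known for its role in the activation of quiescent stem cells, beside its role as a kinase in G1. Its level in replicates 1 to 4 was 550.3, 473, 706 and 568 CPM in WT LSK and 1614, 1152, 1595 and 2225 CPM in WT GMP. The groups did not overlap, as was so for 4 of 10 members in WT (*Cdkn1b*, *Cdkn1c*, *Cdk4* and *Cdk6*), against 31.4% of all genes tested. The log2 fold change was 1.51 ± 0.22 (SE, adjusted p = 0.00134, edgeR's quasi-likelihood test), and *Cdk6* was higher in GMP in 4 of 4 same-numbered pairs. In URE mice it stood at 658, 502, 499 and 754 CPM in LSK and 1625, 1154, 1393 and 1182 CPM in GMP. These groups did not overlap either, with a log2 fold change of 1.11 ± 0.21 (adjusted p = 0.00513) and a higher level in GMP in 4 of 4 pairs. The interaction of -0.37 ± 0.29 was not called (adjusted p = 0.760), and URE and WT differed by 0.03 ± 0.20 in LSK and -0.30 ± 0.22 in GMP on the log2 scale, neither of them called. Leaving out each library in turn kept *Cdk6* between 1.34 and 1.69 in WT and between 1.01 and 1.28 in URE.

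*Cdk4*, the other partner of the D cyclins, had the highest level per kb of the 10 members in each group mean. In replicates 1 to 4 it stood at 481, 535, 439 and 586 CPM in WT LSK, 636, 749, 627 and 719 CPM in WT GMP, and 559, 562, 584 and 588 CPM in URE GMP. WT GMP lay above both of the other groups without overlap. Neither difference was called, with log2 fold changes of 0.41 ± 0.14 for GMP against LSK in WT (adjusted p = 0.0581) and -0.26 ± 0.13 for URE against WT in GMP (adjusted p = 0.295, edgeR's quasi-likelihood test). With the replicate number as a block the first of these had an adjusted p of 0.0039 at a fold change below 1.5. URE LSK stood at 509 ± 80.8 CPM, against 510.4 ± 63.7 CPM in WT LSK (SD, n = 4). *Cdk6* made up 20.9% ± 4.49 of the summed CPM per kb of both kinases in WT LSK, 21.7% ± 4.32 in URE LSK, 35.6% ± 6.56 in WT GMP and 35.0% ± 3.93 in URE GMP. *Tspan31* on the opposite strand shares 641 bp of exon with *Cdk4*, 19.7% of its exonic length, and stood at 144 ± 13.3 CPM in WT GMP and 192 ± 41.0 CPM in URE GMP.

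Of the Cip/Kip inhibitors, *Cdkn1a* (chr17:29090976-29100727, plus strand) was higher in GMP than in LSK of URE mice. It encodes p21, a target of p53 that halts the cycle after damage and is also known from stem cell quiescence. A promoter window of *Cdkn1a* in RefSeq (GRCm38.p6) is shown with that of *Cdk6*, since these members were called from LSK to GMP in URE mice. In the first, the capitals mark a p53 response element with at most 1 mismatch to its consensus. The second held no match to this element and is shown without capitals. A further window of *Cdkn1a*, at chr17:29093519-29093818, held no match to it either, and its bases before the start lie in an annotated exon. The bases shown lie outside annotated exons, on the plus strand, at chr17:29090729-29090975 and chr5:3343789-3343892.
Cdkn1a: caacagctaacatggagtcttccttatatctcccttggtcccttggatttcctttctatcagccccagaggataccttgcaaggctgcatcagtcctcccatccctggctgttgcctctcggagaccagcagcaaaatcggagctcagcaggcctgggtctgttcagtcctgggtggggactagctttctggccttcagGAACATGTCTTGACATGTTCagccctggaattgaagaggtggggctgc
Cdk6: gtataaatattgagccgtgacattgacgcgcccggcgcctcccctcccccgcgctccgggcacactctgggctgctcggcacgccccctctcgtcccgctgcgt
A p53 element of this kind was found in 29 of 32851 promoter windows of all genes (0.0883%), and the search was added after the sequence had been seen. The PU.1 letters GAGGAAGT were found on neither strand in the 10 windows of the 7 members that have one, against 3.20% of all windows, and the E2F letters TTTNGCGC were in none of the 10, against 1.38%. The ETS core letters GGAA, which the PU.1 letters contain, were in 10 of the 10 windows, against 96.0% of all windows, and are left in lower case except where 1 of them overlaps the p53 element of *Cdkn1a*. The RUNX letters TGTGGT were in the window of *Cdk4* only, against 16.8% of all windows. The C/EBP letters TTGCNNAA were in 1 window, that of *Cdkn2c*, against 10.8%. A match to such letters is a description of the window and not a site of binding. *Ccnd1*, *Ccnd2* and *Cdkn1c* had no entry.

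In replicates 1 to 4, *Cdkn1a* stood at 9.52, 28.7, 16.9 and 8.78 CPM in WT LSK and at 5.69, 19.9, 9.23 and 5.31 CPM in URE LSK. The groups overlapped, but URE was lower than WT in 4 of 4 same-numbered pairs, at 0.544 to 0.695 times the WT level. The log2 fold change was -0.70 ± 0.52 (SE, adjusted p = 0.674, edgeR's quasi-likelihood test), and in a fit blocked by replicate number -0.75 ± 0.18 (adjusted p = 0.0396), which passed both thresholds. In GMP, *Cdkn1a* stood at 17.8, 49.2, 41.7 and 17.5 CPM in WT and at 28.1, 62.8, 42.9 and 22.2 CPM in URE. Here URE was higher in 4 of 4 pairs, at 1.03 to 1.57 times the WT level, with a log2 fold change of 0.28 ± 0.43 (adjusted p = 0.802) and of 0.34 ± 0.15 under the block (adjusted p = 0.175, edgeR). The interaction was 0.97 ± 0.72 (adjusted p = 0.732), and 1.05 ± 0.21 with an adjusted p of 0.00953 under the block. So the lower level in URE LSK and the difference between the cell types passed the thresholds only where libraries of one replicate number were compared with each other. In replicates 2 and 3 the URE and WT libraries so paired also differed in Y-linked expression, which the blocked fit did not include.

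From LSK to GMP, *Cdkn1a* rose in URE mice by 1.92 ± 0.48 on the log2 scale (adjusted p = 0.0194, edgeR's quasi-likelihood test), 3.79-fold, without overlap of the groups. Over the libraries left out in turn it ran from 1.62 without URE GMP replicate 2 to 2.52 without URE LSK replicate 2. The call was lost without URE GMP replicate 2 or URE LSK replicate 1, with adjusted p-values of up to 0.055, and with replicates 2 and 3 alone (1.85, adjusted p = 0.0506). In WT mice the change was 0.97 ± 0.48 (adjusted p = 0.167), and 0.98 ± 0.12 with an adjusted p of 0.000317 under the block. Replicates 1 and 4 alone gave 0.95 with an adjusted p of 0.0431, which passed both thresholds, and replicates 2 and 3 alone 1.07 with an adjusted p of 0.0687 (edgeR). *Cdkn1a* had a higher level in GMP in 4 of 4 pairs of either genotype. Over all groups, replicates 2 and 3 lay above replicates 1 and 4 in 4 of 4 groups, with means 2.10 to 2.65 times as high. According to the study's methods, an experiment spread over several days had replicates of all conditions on each day, but the sources used here do not tie a replicate number to a day.

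**Figure D4:**
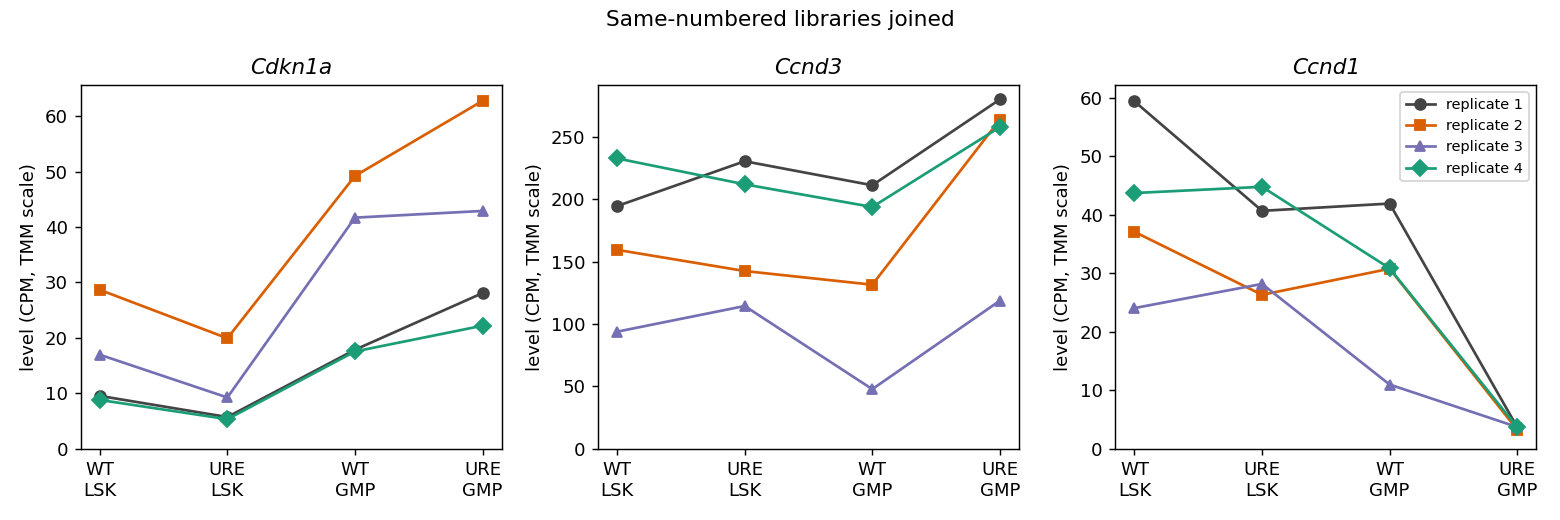
Level (CPM, linear axis from 0) of *Cdkn1a*, *Ccnd3* and *Ccnd1* in the 4 groups, with libraries of the same replicate number joined by a line. For *Cdkn1a* each line is lower at URE LSK than at WT LSK and higher at URE GMP than at WT GMP, for *Ccnd3* the line of replicate 3 is the lowest in each group, and for *Ccnd1* the 4 lines meet at 3.24 to 3.69 CPM in URE GMP.

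*Cdkn1c* encodes p57, an inhibitor known to be needed for the quiescence of stem cells. It was the rarest member, with counts of 38, 12, 39 and 31 in WT LSK, 6, 34, 17 and 22 in URE LSK, 0, 6, 3 and 6 in WT GMP and 0, 1, 8 and 1 in URE GMP. In WT mice the GMP libraries all lay below the LSK libraries, and in URE mice 1 GMP library, replicate 3, lay above 1 LSK library. *Cdkn1c* fell by 2.63 ± 0.73 on the log2 scale from LSK to GMP in WT (adjusted p = 0.0250, edgeR's quasi-likelihood test). This call was lost without WT GMP replicate 2 or 3 or WT LSK replicate 1, 3 or 4, with adjusted p-values of up to 0.0589, and with replicates 1 and 4 or 2 and 3 alone (adjusted p = 0.0912 and 0.162, edgeR). In URE mice the gene was below the filter on low counts, and without the filter its log2 fold change was -2.53 (adjusted p = 0.133). DESeq2 gave -2.49 (adjusted p = 0.056), a joint edgeR fit of the 16 libraries -2.49 (adjusted p = 0.0564), and edgeR without URE GMP replicate 3, which had 8 counts, -4.26 (adjusted p = 0.0148). Between URE and WT LSK it stood at 0.749 ± 0.382 and 1.10 ± 0.483 CPM (SD, n = 4), with a log2 fold change of -0.58 ± 0.59 (adjusted p = 0.811).

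*Cdkn1b* encodes p27, which is known to restrain the division of progenitors. It stood at 22.8, 25.4, 17.0 and 21.1 CPM in WT LSK and 16.8, 16.5, 16.03 and 13.7 CPM in WT GMP. These groups did not overlap, yet the log2 fold change of -0.46 ± 0.19 was not called (adjusted p = 0.102, edgeR's quasi-likelihood test). Scaling by total counts in place of TMM, which moved the median gene of this comparison by -0.33, gave -0.79 with an adjusted p of 0.0102. In URE mice the means were 20.3 ± 6.85 CPM in LSK and 17.9 ± 3.01 CPM in GMP (SD, n = 4), with a log2 fold change of -0.22 ± 0.29. URE and WT differed by -0.12 ± 0.29 in LSK and 0.17 ± 0.19 in GMP on the log2 scale, neither of them called.

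The Ink4 inhibitors were called in none of the comparisons. *Cdkn2c* encodes p18, known as a limit on the self-renewal of stem cells. In replicates 1 to 4 it stood at 2.34, 3.59, 4.999 and 4.19 CPM in WT LSK, 1.56, 2.39, 5.35 and 2.43 CPM in URE LSK, 2.12, 3.16, 6.35 and 3.16 CPM in WT GMP and 1.74, 1.15, 3.49 and 2.48 CPM in URE GMP. Replicate 3 was the highest library in 4 of 4 groups. In GMP the URE level was lower in 4 of 4 same-numbered pairs, with a log2 fold change of -0.75 ± 0.47 (adjusted p = 0.438, edgeR's quasi-likelihood test) and -0.74 ± 0.32 under the block (adjusted p = 0.150). The counts behind these values were 22 to 130 per library. *Cdkn2d* encodes p19 and was the steadiest member, with group means of 66.7 ± 7.76 CPM in WT LSK, 62.6 ± 9.61 CPM in URE LSK, 60.3 ± 9.51 CPM in WT GMP and 62.6 ± 4.11 CPM in URE GMP (SD, n = 4). Its log2 fold changes lay between -0.16 and 0.05 in the 4 comparisons, with SEs of 0.16 to 0.17. Per kb, *Cdkn2d* had the highest level of the 5 inhibitors in each group mean, 42.4 ± 4.93 CPM per kb in WT LSK, against 4.74 ± 0.776 for *Cdkn1b*, 4.50 ± 2.60 for *Cdkn1a*, 1.41 ± 0.417 for *Cdkn2c* and 0.539 ± 0.237 for *Cdkn1c*. The inhibitors of the Ink4 locus itself, *Cdkn2a* and *Cdkn2b*, had 0 to 4 counts per library and were not tested.

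Between URE and WT LSK, the log2 fold changes of the 10 members lay between -0.70 and 0.06, with a median of -0.12 beside 0.00 over all genes tested. The 5 inhibitors were all negative and none was called in this fit, with SEs of 0.17 to 0.59. Other genes of the pathway were followed in lists chosen beforehand with earlier results of these data known. Of 13 cycling genes (*Mki67*, *Top2a*, *Pcna*, the Mcm genes and others), 0 were called by edgeR in LSK, with a median log2 fold change of 0.32 and 13 of 13 above 0. *Mcm6*, a subunit of the replicative helicase, had the smallest p of this list (0.53 ± 0.19, adjusted p = 0.177). Of 14 genes associated with quiescence, 1 was lower in URE LSK, *Tek*, the receptor that keeps stem cells in their niche (-2.33 ± 0.31, adjusted p = 0.00226), with a list median of -0.21. Of 12 targets of p53 other than *Cdkn1a*, 1 was lower, *Btg2*, an antiproliferative gene (-1.70 ± 0.18, adjusted p = 0.000637), with a list median of -0.03. No gene was called among 7 later cyclins and CDKs (median 0.02), 13 pocket protein and E2F genes (median 0.22) and 6 genes of inhibitor turnover and CDK activation (median -0.12). Beside these counts, 6.14% of all genes were called in this comparison. With the replicate number as a block, which called 9.46% of all genes, 1 cycling gene was higher in URE LSK (*Mcm2*, 0.62 ± 0.15, adjusted p = 0.0439, edgeR), and of the quiescence-associated genes *Foxo3* was higher (0.73 ± 0.13) and *Meis1* was lower (-0.72 ± 0.14) beside *Tek*.

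Between URE and WT GMP, the members had a median log2 fold change of -0.26 and all genes tested 0.01. Cycling genes had a median of -0.10 and later cyclins and CDKs one of -0.19, with 3 of 13 and 0 of 7 above 0 and none called. None of the pocket protein and E2F genes was called either (median 0.20). *Tek* was lower in URE GMP as well (-4.89 ± 0.57, adjusted p = 0.00122), at 0.538 ± 0.230 CPM against 16.2 ± 9.04 CPM in WT GMP, as the only called gene of 12 quiescence-associated genes tested. Of 10 targets of p53 tested, 2 were higher in URE GMP, *Bbc3*, which encodes the proapoptotic protein Puma (1.67 ± 0.40, adjusted p = 0.0333), and *Trp53inp1* (0.88 ± 0.21, adjusted p = 0.0354), with a list median of 0.59 and 8.30% of all genes called in this comparison. *Bbc3* rested on 17 to 84 counts per library in these groups. The genotype effect on *Btg2* was higher in GMP than in LSK by 1.41 ± 0.26 (interaction term, adjusted p = 0.014), and no other gene of the lists was called in that test, against 1.22% of all genes. Under the block, which called 16.3% of all genes in GMP and 6.57% for the interaction, *Meis1* and *Procr* were also lower and *Gfi1* and *Rbl2* higher in URE GMP, and the interaction called 4 p53 targets (*Bbc3*, *Btg2*, *Trp53inp1* and *Sesn2*, all positive), *Tek* and *Procr* (both negative) and 1 cycling gene, *Mcm3* (-0.45 ± 0.12, adjusted p = 0.0477, edgeR).

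From LSK to GMP, 27.3% of all genes tested were called in WT mice and 21.8% in URE mice, against which the counts of the lists stand. Of 7 later cyclins and CDKs, 5 were higher in WT GMP (median 1.06 beside -0.09 over all genes tested), among them *Ccne2*, a G1/S cyclin (1.31 ± 0.26, adjusted p = 0.00557), and *Cdk1*, the mitotic kinase (1.06 ± 0.15, adjusted p = 0.00111). Of 13 cycling genes 7 were higher in WT GMP (median 0.69), led by *Rrm2*, a subunit of ribonucleotide reductase (1.84 ± 0.15, adjusted p = 6.1e-05). Of 6 genes of inhibitor turnover and CDK activation, 2 were called in WT. These were *Skp2* and *Cks1b*, which mark *Cdkn1b* for degradation and were both higher (0.91 ± 0.19 and 1.30 ± 0.27, adjusted p = 0.00712 and 0.00707), while the level of *Cdkn1b* itself is given above. In URE mice 1 of 7 later cyclins and CDKs (*Cdk1*, median of the list 0.72) and 1 of 13 cycling genes (*Rrm2*, median 0.30) were higher in GMP. Under the block, which called 40.9% of all genes in WT and 31.9% in URE, these counts were 6 of 7 and 8 of 13 in WT and 4 of 7 and 3 of 13 in URE. No gene of either list was called for the interaction without the block, where the median was -0.27 for the later cyclins and CDKs, with 1 of 7 above 0, and -0.44 for the cycling genes, with 0 of 13 above 0, beside 0.00 over all genes. *Cks1b* was higher in URE GMP too (1.14 ± 0.24, adjusted p = 0.00876), as the 1 called gene of its list of 6 in URE. Of 13 pocket protein and E2F genes, 1 was called in WT (*Tfdp1*, higher) and 2 in URE (*E2f8* higher and *E2f5* lower). Under the block 3 of these 13 were called in either genotype, and of the 6 turnover genes 3 in WT and 2 in URE. Of the genes associated with quiescence, 10 of 14 fell in WT (median -2.43) and 10 of 14 in URE (median -3.00), and under the block 12 and 11, with *Procr*, *Fgd5*, *Ndn* and *Hlf* the furthest down. *Hlf*, *Mecom* and *Procr* of this list are also among the 6 LSK and stem cell markers that checked the sort, so their fall is not separate from that check. The exception was *Gfi1*, a repressor active in stem cells and in neutrophil precursors alike, which was higher in URE GMP than in URE LSK (2.71, adjusted p = 0.0242). Of the p53 targets, 5 of 12 were lower and 1, *Bax*, was higher from LSK to GMP in WT, and 4 were lower in URE, among them *Plk2* (-3.51 ± 0.78 in WT and -3.94 ± 0.49 in URE). In URE mice, 4 of the 12 had fold changes above 0, and *Btg2* (0.56 ± 0.17, adjusted p = 0.0448) had groups that did not overlap but a change below 1.5-fold. The block called 8 p53 targets in WT, 7 of them lower, and 5 in URE, all lower.

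**Figure D5:**
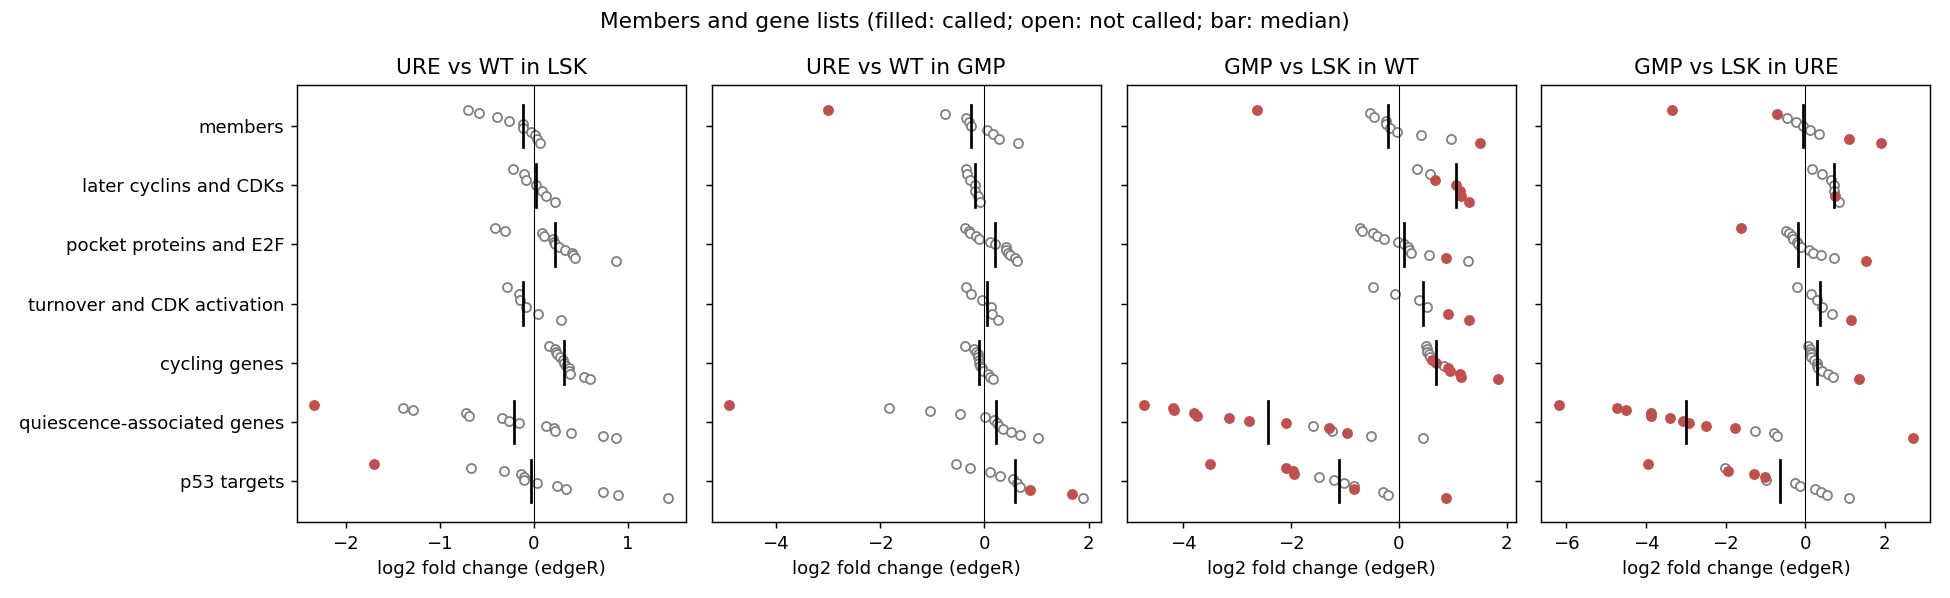
Log2 fold change (edgeR) of the members and of 6 gene lists in the 4 comparisons. Each point is a gene tested, filled where called and open where not, and the bar is the median of the list. From LSK to GMP the medians of the cycling genes are 0.69 in WT and 0.30 in URE, and those of the quiescence-associated genes are -2.43 and -3.00, with *Gfi1* above 0 in both.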

How the data were processed

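Poly(A) RNA of sorted cells was made into unstranded, paired-end low-input libraries with at most 10 ng of input RNA and no molecular identifiers, so depth covers counting error only. The authors quantified reads with salmon against GRCm38 and deposited estimated counts per gene, summed over transcripts with tximport and rounded, for 54347 genes; the annotation release is not given in the sources used here. Identifiers were matched to GENCODE M21 (54094 of 54347), which gave positions and exonic lengths.

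From these counts, edgeR 4.0.16 (R 4.3.3, limma 3.58.1) was run with TMM, filterByExpr, the quasi-likelihood test, which is two-sided, and Benjamini-Hochberg adjustment over all genes tested, each comparison on its own 8 libraries and the interaction on all 16. A call needed an adjusted p below 0.05 and a change of more than 1.5-fold, as in the study's methods. Each SE is the absolute log2 fold change over the square root of its F statistic. The scripts were tested on simulated data. Alternatives were DESeq2 1.42.0, other scaling, no filter, a joint fit, no fold threshold, the replicate block, a Y-linked covariate, replicate subsets and each library left out in turn. Of the further genes, at most 4 called genes per list and comparison are named, those with the largest change, or the one with the smallest p where none was called; *Mki67*, *Top2a*, *Pcna*, *Gfi1*, *Bax* and the genes called only under the block were named after their values were seen. The members and lists were chosen with earlier results of these data known.

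Pairing by replicate number comes from the labels. Deviations from the group means of same-numbered libraries were correlated in every pair (r between 0.24 and 0.71), so the numbers were taken to pair the samples, and blocked values stand where they change a call. Replicates 1 and 4, and replicates 2 and 3, were positively correlated across groups too (r between 0.059 and 0.40). URE replicate 4 correlated more with WT replicate 1 than with WT replicate 4, in LSK (0.40 against 0.28) and in GMP (0.39 against 0.24). Promoter windows of 250 bases before to 50 after each start came from RefSeq (GRCm38.p6), and were found for 7 of the 10 members. Motif letters were searched on both strands. One marker gene is not reported here.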

Additional observations from a re-analysis of the deposited data

Results flagged for a closer look

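Among 44 groups of 4 libraries, those of the 10 members and *Spi1*, 3 held a library far from the others by Dixon's test, where chance gives about 2.2. *Ccnd3* in URE GMP stood at 119 CPM in replicate 3 and at 258 to 280.0 CPM in the others. *Ccnd1* in URE GMP stood at 3.24 CPM in replicate 2 and at 3.66 to 3.69 CPM in the others, a gap of few counts. *Cdkn1c* in URE GMP stood at 0.410 CPM (8 counts) in replicate 3 and at 0 to 0.0563 CPM in the others. The genotype effect on *Ccnd1* differed between the cell types, by -2.77 on the log2 scale in GMP against LSK (interaction term in edgeR, adjusted p = 0.0122).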

How the results depend on the processing

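The call of *Ccnd1* between URE and WT GMP held under each scaling, filter, tool and covariate and without each library in turn (-3.28 to -2.75), and was lost with replicates 2 and 3 alone. Counts of called genes over all genes moved with the tool and the block. DESeq2 called 1632 genes in LSK, 1999 in GMP and 672 for the interaction, the replicate block 1433, 2260 and 1047, and the Y-linked covariate 510 in LSK and 630 in GMP. Replicates 2 and 3 alone gave 386 in LSK, 108 in GMP, 2507 and 810 for GMP against LSK in WT and URE, and 2 for the interaction, with fewer samples. In these replicates only the WT libraries had Y-linked expression. Of the members, the block called 1 in LSK, 2 in GMP, 4 for GMP against LSK in WT and 2 for the interaction, while replicates 2 and 3 alone called 0 in GMP, 1 and 2 for GMP against LSK in WT and URE, and 0 for the interaction. Leaving out each library in turn gave 565 to 961 genes in LSK (565 without WT LSK replicate 2 and 606 without WT LSK replicate 4), 715 to 1176 in GMP (715 without URE GMP replicate 4) and 84 to 283 for the interaction, where the count fell to 84 without URE GMP replicate 4, to 102 and 115 without WT GMP replicates 4 and 2, and to 105 to 109 without URE LSK replicate 4 or WT LSK replicate 1, 2 or 4. For GMP against LSK it gave 3216 to 4257 genes in WT and 2193 to 3369 in URE. Members called were then 1 to 2 in WT, 1 without WT GMP replicate 2 or 3 or WT LSK replicate 1, 3 or 4, and 2 to 4 in URE, 2 without URE GMP replicate 2 or URE LSK replicate 1. Total count scaling moved the median gene from LSK to GMP by -0.33 in WT and -0.31 in URE. The block changed no other call of a member than those given with the results. The causes were not tested. Of 924 values of the members under the alternatives, 51 changed sign, and none of these was past the adjusted p threshold. Over the libraries left out in turn, URE against WT in LSK ran from -0.27 to 0.097 for *Cdkn1b*, -0.085 to 0.26 for *Ccnd2*, -0.17 to 0.19 for *Ccnd3*, -0.11 to 0.055 for *Cdk4*, -0.088 to 0.18 for *Cdk6* and -0.13 to 0.38 for *Ccne2*. In GMP it ran from -0.044 to 0.56 for *Cdkn1a* and -0.062 to 0.084 for *Cdkn2d*. GMP against LSK ran in WT from -0.40 to 0.22 for *Cdkn2c*, -0.23 to 0.0049 for *Cdkn2d*, -0.43 to 0.097 for *Ccnd3* and -0.034 to 0.39 for *Spi1*, and in URE from -0.75 to 0.067 for *Cdkn2c* and -0.083 to 0.072 for *Cdkn2d*. The interaction ran from -1.62 to 0.54 for *Cdkn1c* and -0.70 to 0.088 for *Cdkn2c*. With replicates 2 and 3 alone, URE against WT in LSK was -0.094 for *Ccnd2*, -0.0013 for *Ccnd3*, 0.040 for *Cdk4* and -0.27 for *Cdk6*, GMP against LSK was 0.22 for *Cdkn2c* in WT and 0.11 for *Cdkn2d* in URE, and the interaction was 0.15 for *Cdk6*. With replicates 1 and 4 alone, GMP against LSK was -0.0027 for *Spi1* in WT and 0.087 for *Cdkn2c* in URE, and the interaction was -1.18 for *Cdkn1c* and 0.38 for *Cdkn2c*. The Y-linked covariate gave -0.014 for *Ccnd3* in LSK and -0.020 for *Cdkn2d* in GMP. Total count scaling gave -0.0059 for *Ccnd3* in LSK, and for GMP against LSK -0.17 for *Spi1* in WT and -0.17 for *Cdk4* in URE. RLE size factors and DESeq2 gave 0.033 and 0.039 for *Cdkn2c* in WT and 0.020 and 0.030 for *Cdkn2d* in URE for GMP against LSK. Low counts limit *Cdkn1c* and *Cdkn2c*.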

Other observations

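The genes whose log2 CPM over the 16 libraries was most like that of a member, among 15935 genes, are given as a description, since the points share groups and libraries. For *Ccnd1* they were *Abi2*, *Rap1gds1* and *Slc39a6* (Pearson's r of 0.98, 0.96 and 0.94 across 16 libraries). For *Ccnd3* they were *Dhcr7*, *Atg4d* and *Arhgap1* (0.98, 0.97 and 0.96), and for *Ccnd2* *Zfp438*, *Elf2* and *Nkpd1* (0.81, 0.80 and 0.78). For *Cdk6* they were *Gm10108*, *Ciapin1* and *Cyc1* (0.96, 0.96 and 0.95), and for *Cdk4* *Ppp1cb*, *Rbmxl1* and *Nfkbib* (0.93, 0.92 and 0.92). For *Cdkn1a* they were *Clp1*, *Lpgat1* and *Cyba* (0.96, 0.95 and 0.95). The remaining inhibitors had *Cfl2* (0.89, *Cdkn1b*), *Zfp286* (0.92, *Cdkn1c*), *Gm13274* (0.91, *Cdkn2c*) and *Gm14698* (0.82, *Cdkn2d*) as the nearest gene.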
